A study of Homo sapiens with 2 samples.

Results

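Homologous recombination copies an intact sister chromatid to mend broken DNA, and the Fanconi pathway unhooks crosslinked strands so that the same machinery can finish the repair. Many of these genes are transcribed mainly in S and G2 phase, when a sister chromatid is present, while others are made in resting cells as well. The 41 genes described here were fixed by name: the BRCA proteins and their partners, the filament mediators RAD51B, RAD51C, RAD51D, XRCC2 and XRCC3, strand exchange factors and translocases, the Fanconi core complex with its ubiquitin-conjugating enzyme, the ID complex, the factors that sense and resect broken ends, the enzymes that dissolve or cut joined DNA molecules, and the checkpoint kinases. All 41 were found on the array through RefSeq accessions, among 21743 genes named in this way, and 40 of them gave a ratio.

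The cells were MRC-5, a widely used line of fibroblasts grown from human fetal lung. They were transfected with control siRNA or with siRNA against periostin, a matricellular protein encoded by POSTN, and the labels give 10 nM and 48 h for the periostin siRNA. Each condition was 1 sample on 1 single-colour Agilent array, and 1 slide carried both arrays. Without a replicate of either condition no difference could be tested, and the errors below are those of spots on the arrays.

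Signals are scanner intensities scaled to a common 75th percentile, and a ratio is the log2 of periostin siRNA over control siRNA. The error is the SD over spots where a probe was printed 10 times and the propagated spot error of the scanner program where it was printed once. Spots well above background made up 58.0% with control siRNA and 58.9% with periostin siRNA. POSTN had a signal of 2638 on the control array and 280 on the knockdown array, a ratio of -3.24 ± 0.20 from 1 spot, in the direction of the labels. All 9 fibroblast markers examined, COL1A1 and VIM among them, were well above background on both arrays. Of 5 epithelial markers, 4 were well above background and the summed signal of all 5 went from 341 on the control array to 642 on the other. EPCAM went from 34.6 to 135, whereas CDH1 was below background on both arrays, and the part of these cells or transcripts in the results was not tested. Of 6 immune markers, 1 was well above background with control siRNA and 3 with periostin siRNA, with summed signals of 34.9 and 56.1. Of 3 endothelial markers, 2 were above background on both arrays, with summed signals of 124 and 128.

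The promoters of the genes with the lowest ratios are shown first, because many S phase genes carry binding sites of the E2F factors close to their start. RefSeq windows of GRCh38.p14, from 250 bases before to 50 bases after a transcription start, were held for 37 of the 41 genes, 13 of them with several starts. The motifs searched, on both strands, were the E2F words TTTCCCGC, TTTCGCGC, TTTGCCGC and TTTGGCGC, the words TTTGAA and TTCGAA of the cell cycle homology region (CHR), and the CCAAT box. No match of 1 motif overlapped that of another in the windows of these genes. In the stretches below capitals mark an E2F word, or its reverse complement, in FANCD2, EXO1 and FANCA, which were more than 3-fold lower, and in FANCC and RMI1, which were not. In RAD54L and BLM, which had the lowest ratios and no E2F word, capitals mark CCAAT or its reverse complement. BRCA1, also more than 3-fold lower, held CCAAT and no E2F word and is not shown. XRCC2, which was not more than 3-fold lower, held an E2F word and is not shown either. All are written 5′ to 3′ in the direction of the gene.

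FANCD2, chr3:10026317-10026452, plus strand: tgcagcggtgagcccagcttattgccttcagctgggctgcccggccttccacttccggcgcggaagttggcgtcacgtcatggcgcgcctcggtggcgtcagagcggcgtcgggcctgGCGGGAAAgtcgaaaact
EXO1, chr1:241848084-241848225, plus strand: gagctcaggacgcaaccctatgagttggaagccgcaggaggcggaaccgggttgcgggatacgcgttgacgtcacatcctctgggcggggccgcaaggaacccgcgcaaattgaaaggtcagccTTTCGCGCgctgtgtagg
FANCA, chr16:89816648-89816829, minus strand: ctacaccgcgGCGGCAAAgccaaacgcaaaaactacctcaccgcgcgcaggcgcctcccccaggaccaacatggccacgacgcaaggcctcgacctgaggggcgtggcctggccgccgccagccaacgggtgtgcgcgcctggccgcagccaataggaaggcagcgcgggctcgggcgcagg
FANCC, chr9:95317710-95317891, minus strand: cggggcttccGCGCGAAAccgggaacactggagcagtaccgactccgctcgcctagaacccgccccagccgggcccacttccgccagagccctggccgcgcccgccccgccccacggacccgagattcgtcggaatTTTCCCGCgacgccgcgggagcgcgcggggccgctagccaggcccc
RMI1, chr9:83980685-83980804, plus strand: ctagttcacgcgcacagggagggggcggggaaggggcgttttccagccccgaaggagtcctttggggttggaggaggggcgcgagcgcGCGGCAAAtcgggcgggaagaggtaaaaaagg
RAD54L, chr1:46247568-46247700, plus strand: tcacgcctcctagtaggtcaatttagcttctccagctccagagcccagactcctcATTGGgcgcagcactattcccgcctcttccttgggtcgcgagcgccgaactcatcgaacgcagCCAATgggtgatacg
BLM, chr15:90717195-90717345, plus strand: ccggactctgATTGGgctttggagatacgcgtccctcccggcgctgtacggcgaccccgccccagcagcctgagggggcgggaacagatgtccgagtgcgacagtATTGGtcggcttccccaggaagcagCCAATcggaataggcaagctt

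An E2F word lay in at least 1 window of 6 of the 37 genes (16.2%), namely EXO1, FANCA, FANCC, FANCD2, RMI1 and XRCC2. Of all 27305 genes with a window 3.99% held such a word, of the 12407 of them that gave a ratio 6.10%, and of all 35116 windows 3.31%. Among the 6 genes more than 3-fold lower 3 held it, and among the other 31 genes with a window 3 held it. The word of FANCD2 began 2 bases before the start and that of EXO1 5 bases after it, whereas that of FANCA began 172 bases before it. A CHR word lay in 0 of the 6 genes more than 3-fold lower and in 5 of the other 31, beside 19.5% of all genes, 16.2% of genes with a ratio and 16.4% of windows. CCAAT lay in 4 of the 6 and 14 of the 31, beside 39.7% of all genes, 42.2% of genes with a ratio and 34.6% of windows. A match describes letters in a window and does not show that a factor binds there. Only the words named above were searched, so a gene without one can still hold a related site.

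The recombination and Fanconi genes differed unevenly between the conditions, and the largest differences were all towards lower signal with periostin siRNA. Of the 40 genes with a ratio 6 were more than 3-fold lower, RAD54L, BLM, FANCD2, EXO1, BRCA1 and FANCA, and none was more than 3-fold higher, with BRCA2 counted at its bound. BRCA1 and FANCA lay within their own spot error of the 3-fold line, so the count of 6 is not sharp. Over all 16052 genes with a ratio, dim and bright, 2.75% were more than 3-fold lower and 3.37% more than 3-fold higher. The 6 genes all had a mean signal over both arrays under 100, where the share of all genes more than 3-fold lower was 4.48%. At a 2-fold threshold 9 of the 40 were lower, adding RAD51AP1, FANCI and UBE2T, against 6.42% of all genes, and again none was higher, against 7.97%. At 4-fold RAD54L, BLM and FANCD2 were lower, against 1.71% of all genes and 2.94% of those with a mean signal under 100. None was higher at 4-fold, against 1.73%. The median ratio of the 40 was -0.25 beside 0.06 over all genes, with 27 of the 40 below 0, beside 45.5% of all genes, and 13 above 0, beside 54.5%. For 10 of the genes the ratio was smaller in size than its own spot error. RNA was taken from whole cultures, so fewer cells in S and G2 phase and less of these transcripts per cell cannot be told apart.

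**Figure D1:**
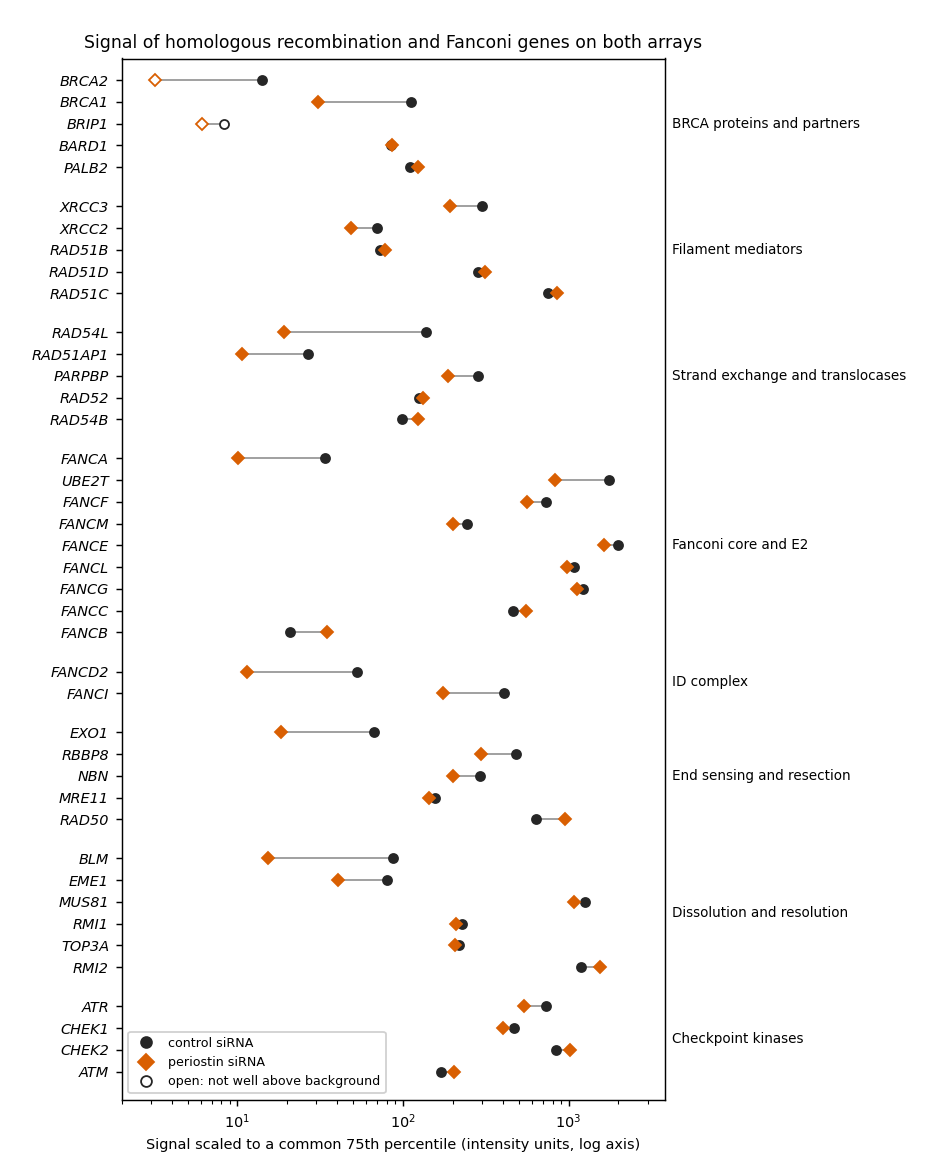
Signal of each of the 41 genes on the control siRNA array (black circles) and the periostin siRNA array (orange diamonds), in intensity units on a log axis, from the probe that stands for the gene, grouped by role. Open symbols were not well above background. The longest gaps belong to RAD54L, BLM, FANCD2, EXO1, BRCA1 and FANCA, and to BRCA2, whose periostin siRNA signal lay below background.

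BRCA1, a ubiquitin ligase that steers broken ends towards recombination, had a signal of 111 in control cells and 30.7 after knockdown. Its probe was printed 10 times, and the spots ran from 101 to 129 (median 108) on the first array and from 23.7 to 39.5 (median 30.3) on the second, without overlap. The ratio was -1.86 ± 0.29 (SD over 10 spots), or 3.63-fold lower. BARD1, which forms the ligase together with BRCA1, had signals of 84.8 and 85.9, a ratio of 0.02 ± 0.21. PALB2, the bridge between BRCA1 and BRCA2, had signals of 110 and 122, a ratio of 0.15 ± 0.21. The ratio of BRCA1 thus lay 1.88 below that of BARD1 and 2.01 below that of PALB2, with combined spot errors of 0.36 and 0.35.

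BRCA2, which helps recombination to start on single-stranded DNA, was well above background in all 10 spots with control siRNA, at 8.78 to 16.4, and in 0 of 10 spots with periostin siRNA, at 1.78 to 7.01. Set against 7.77, the lowest signal that still stood well above background with periostin siRNA, it was at least 1.82-fold lower. BRIP1, a helicase that binds BRCA1, was not well above background on either array, with signals of 8.28 and 6.10, and gives no ratio. The median ratio of the 4 measured genes of this group was -0.42, and it was 0.02 when BRCA2, known as a bound only, was left out.

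The 5 filament mediators, which help to build and remodel the protein filament on single-stranded DNA, had ratios from -0.63 to 0.20 with a median of 0.09, or -0.039 when the arrays were scaled on their medians. RAD51C went from 747 to 856, a ratio of 0.20 ± 0.20, and RAD51B from 73.1 to 77.7, a ratio of 0.09 ± 0.21. The second probe of RAD51B, below background with control siRNA, was at least 1.52-fold higher. RAD51D had 0.13 ± 0.20 by its brightest probe, with 0.09 and -0.27 by the other probes. XRCC3 had signals of 299 and 193, a ratio of -0.63 ± 0.20, and XRCC2 had 69.2 and 48.8, a ratio of -0.51 ± 0.22. XRCC2 and XRCC3 were the mediators whose ratio exceeded its spot error, and none of the 5 was more than 2-fold lower.

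Among the strand exchange factors and translocases, RAD54L, a motor that opens the recipient duplex, had the lowest ratio of the 41 genes. It went from 137 to 19.1, a ratio of -2.84 ± 0.24 from 1 spot, or 7.16-fold lower. Its relative RAD54B had signals of 99.2 and 124, and the 10 spots of each array overlapped between 115 and 121. The ratio of RAD54B was 0.32 ± 0.16, and its second probe gave -0.11. The difference between the RAD54L and RAD54B ratios was 3.16 with a combined spot error of 0.29.

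RAD51AP1, which promotes strand pairing, went from 26.8 to 10.7, a ratio of -1.33 ± 0.33. PARPBP, an inhibitor of recombination, had 284 and 187, a ratio of -0.60 ± 0.20. Its second probe, dim with control siRNA and below background with periostin siRNA, gave -1.09 ± 0.41 from 1 spot. RAD52, an annealing factor, had ratios of 0.07 ± 0.21 and 0.09 ± 0.24 by its probes. The median of the 5 genes was -0.60.

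The Fanconi core complex is a ubiquitin ligase, with FANCL as the catalytic subunit and UBE2T as the conjugating enzyme. Of the core subunits, FANCA alone was more than 2-fold lower. Its 3 probes gave -1.75 ± 0.33, -1.60 ± 0.30 (SD over 10 spots, 3 of which carried an outlier flag) and a bound of at least 3.32-fold lower. The spots of the replicated FANCA probe lay between 25.7 and 35.9 with control siRNA and between 5.73 and 14.2 with periostin siRNA, without overlap. With periostin siRNA 8 of these 10 spots were well above background.

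FANCE, FANCF, FANCG, FANCL and FANCM had ratios between -0.37 and -0.12, each with an error of 0.20. The second probes of FANCF and FANCL gave -0.27 and -0.28. FANCE, for instance, had signals of 1987 and 1648, and FANCG 1225 and 1125. FANCC went from 462 to 550, a ratio of 0.25 ± 0.20, and from 31.3 to 53.6 by its second probe, a ratio of 0.78 ± 0.22. FANCB, which pairs with FANCL in the catalytic module, had the highest ratio of the 41 genes, 0.73 ± 0.25, from a signal of 20.9 to 34.7. The median of the 8 core genes was -0.21. UBE2T went from 1746 to 826, a ratio of -1.08 ± 0.20, and lay 0.93 below that of FANCL with a combined spot error of 0.29.

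The substrate of this ligase is the ID complex of FANCD2 and FANCI, and both subunits had ratios below 0 by every probe that was measured. FANCD2 went from 52.8 to 11.49, a ratio of -2.20 ± 0.32, and from 39.3 to 12.8 by another probe, a ratio of -1.62 ± 0.30, while its dimmest probe was below background on both arrays. FANCI went from 409 to 174, a ratio of -1.24 ± 0.20. The median of the pair was -1.72. USP1, which removes ubiquitin from the complex, had a ratio of -0.63 ± 0.11 (SD over 10 spots).

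**Figure D2:**
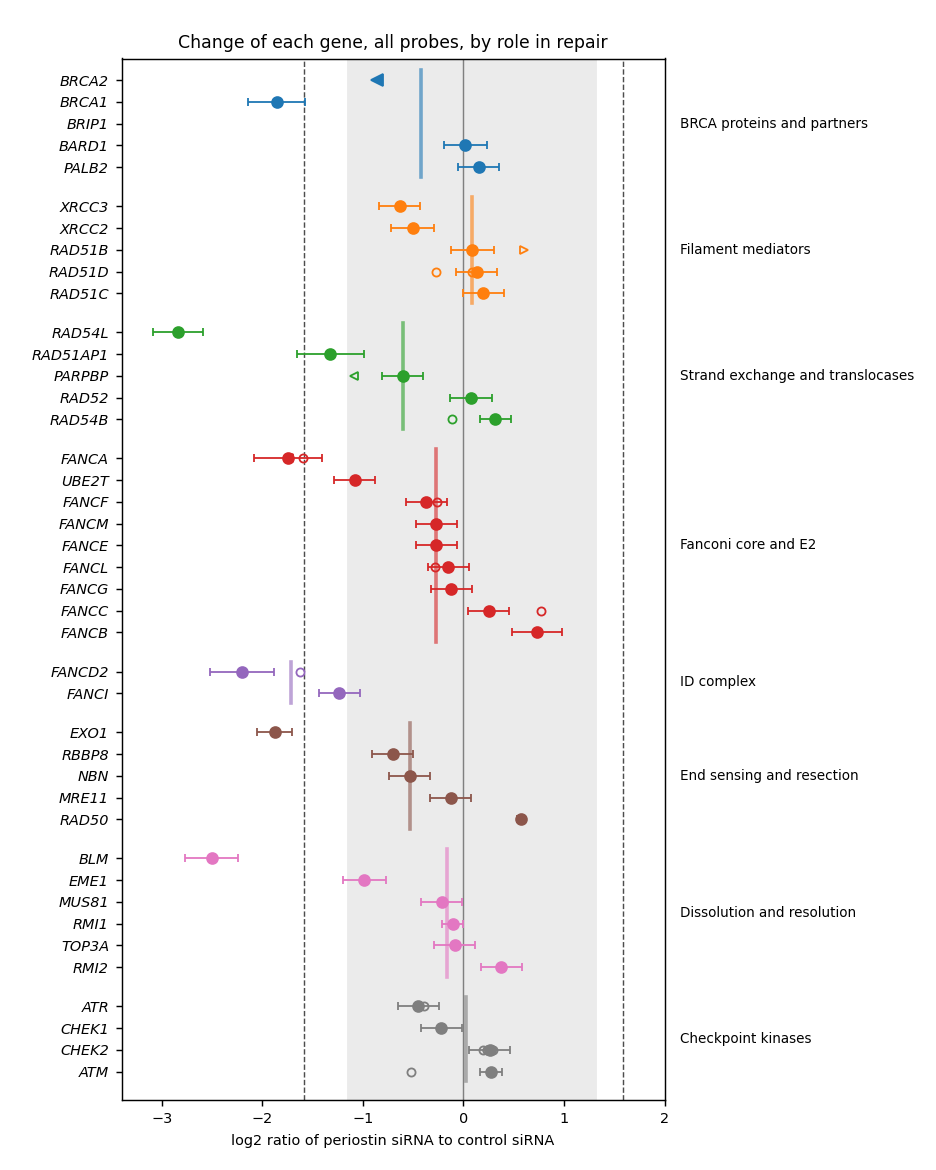
The log2 ratio (periostin siRNA over control siRNA) of every measured probe of the 41 genes, by role. Filled circles are the probe that stands for a gene with its spot error (SD over 10 spots or propagated error of 1 spot), open circles the other probes, triangles probes below background on 1 array, coloured bars the group medians, dashed lines 3-fold and grey shading the span from the 5th to the 95th percentile of all genes. Triangles are bounds, except the open ones of PARPBP and RAD51B, which are plain ratios. RAD54L, BLM, FANCD2, EXO1, BRCA1 and FANCA lie left of the dashed line, and the ID complex has the lowest group median, -1.72.

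Among the factors that sense and resect ends, EXO1, the exonuclease of long-range resection, stood apart from the rest. Its 10 spots lay between 59.7 and 73.7 (median 67.5) with control siRNA and between 14.0 and 24.5 (median 17.5) with periostin siRNA, and the ratio was -1.88 ± 0.17 (SD over 10 spots). RBBP8, which encodes CtIP and starts resection with the MRE11 nuclease, went from 483 to 297, a ratio of -0.70 ± 0.20. EXO1 lay 1.18 below RBBP8, with a combined spot error of 0.27.

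The MRE11, RAD50 and NBN proteins form the complex that first binds a broken end, and their transcripts differed in direction. NBN had 292 and 201, a ratio of -0.54 ± 0.20, and MRE11 157 and 143, a ratio of -0.13 ± 0.21. RAD50 went from 640 to 950, a ratio of 0.57 ± 0.04 (SD over 10 spots), and its spots did not overlap between the arrays, with 603 to 676 against 927 to 995. RAD50 was 1.48-fold higher, the highest ratio of these genes after that of FANCB, and lay 1.11 above NBN with a combined spot error of 0.21.

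BLM, the helicase that with TOP3A, RMI1 and RMI2 separates joined DNA molecules without a crossover, went from 86.6 to 15.3, a ratio of -2.50 ± 0.26 or 5.67-fold lower. The partners had ratios much nearer to 0. TOP3A, the topoisomerase, had 218 and 205, a ratio of -0.09 ± 0.20, RMI1 a ratio of -0.11 ± 0.10 (SD over 10 spots, which overlapped between the arrays) and RMI2 a ratio of 0.37 ± 0.20, from 1189 to 1542. The ratio of BLM lay between 2.39 and 2.88 below those of the partners, with combined spot errors of 0.28 to 0.33. EME1, the partner of the MUS81 nuclease that cuts such molecules, went from 80.5 to 40.6, a ratio of -0.99 ± 0.21, whereas MUS81 had 1257 and 1084, a ratio of -0.21 ± 0.20. The difference between EME1 and MUS81 was 0.77 with a combined spot error of 0.30. The median of the 6 genes was -0.16.

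The checkpoint kinases had ratios between -0.45 and 0.28, with a median of 0.02, or -0.11 under median scaling. The median was -0.31 under the normexp background correction described below, where another probe of ATM became the brightest. ATM was then at -0.46, while ATR, CHEK1 and CHEK2 were at -0.40, -0.21 and 0.26. ATR, the kinase of stalled forks, had 733 and 536, a ratio of -0.45 ± 0.20, with -0.39 by its second probe, and its effector CHEK1 had 471 and 404, a ratio of -0.22 ± 0.20. CHEK2, the effector of ATM, was measured by 6 probes whose ratios all lay between 0.20 and 0.30. ATM, the kinase of broken ends, was not settled, since its probe of 10 spots gave 0.28 ± 0.11, from 169 to 205, and its other probe -0.52 ± 0.21, from 204 to 142. The probes of RAD51D and RAD54B also differed in sign, and for these 3 genes no direction can be given.

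In the order of the ratios no neighbours differed by more than their combined spot error, so adjacent ranks, such as those of EXO1, BRCA1 and FANCA at -1.88, -1.86 and -1.75, cannot be told apart. The 6 genes more than 3-fold lower had signals from 33.9 to 137 with control siRNA and from 10.1 to 30.7 with periostin siRNA. All 6 were among the 13 measured genes with a mean signal over both arrays under 100 (46.2%). Of all 4823 measured genes this dim, 216 (4.48%) were more than 3-fold lower. Among the 27 brighter genes 0 were more than 3-fold lower and 2 more than 2-fold lower. Of all 11229 genes this bright, 225 were more than 3-fold lower. Because the mean spans both arrays, a fall with periostin siRNA itself lowers it, so the split is not independent of the ratio. RAD54L and BRCA1, at 137 and 111 with control siRNA, counted as dim only through their periostin siRNA signals. Whether the difference between dim and bright genes stems from the probes was not tested.

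The size of these differences depended on how the background was removed. With the normexp model and an offset of 50, 0 of the 40 genes were more than 3-fold lower, and the 6 genes had ratios from -1.36 for RAD54L to -0.37 for FANCA. An offset of 50 caps the fall that a dim probe can show before scaling, at 2.84-fold for BLM, 2.45-fold for EXO1, 2.17-fold for FANCD2 and 1.81-fold for FANCA. The caps of RAD54L and BRCA1, 4.03-fold and 3.30-fold, lay above 3-fold. An offset also shrinks falls smaller than the cap, and with it both genes were under 3-fold, at -1.36 and -0.90. Without the offset, a setting chosen after the data were seen, the ratios were -2.34 for RAD54L, -1.93 for BLM, -1.60 for FANCD2, -1.53 for BRCA1, -1.41 for EXO1 and -0.95 for FANCA, so that RAD54L, BLM and FANCD2 stayed beyond 3-fold. FANCI and UBE2T, on brighter probes, had -0.996 and -1.01 with the offset. All 9 of these genes, RAD51AP1 included, had a ratio below 0 in the main and the 10 other settings.

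**Figure D3:**
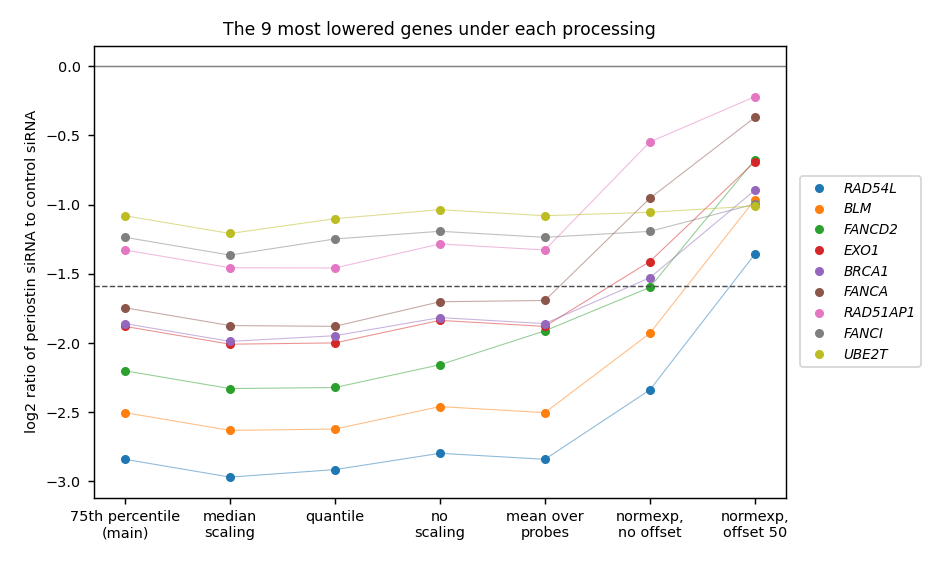
The log2 ratio (periostin siRNA over control siRNA) of the 9 genes with the lowest ratios under 7 of the processings, with the 3-fold line dashed. Lines join the values of 1 gene and imply no order of the processings. All values lie below 0, and the dim genes move up under the normexp correction, from -1.75 to -0.37 for FANCA, while UBE2T stays between -1.21 and -1.01.

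Further genes of the same pathways and of other repair pathways were set beside the 41 genes, in lists drawn up by function. Of 45 measured among 48 further recombination and Fanconi genes, 2 (4.44%) were more than 3-fold lower, beside 2.75% of all genes, and the median was -0.13. They were POLQ, the polymerase of a mutagenic end joining that starts from resected ends, from 74.9 to 10.7 with a ratio of -2.81 ± 0.34, and MND1, a stimulator of strand exchange, from 109 to 17.6 with a ratio of -2.63 ± 0.26. PSMC3IP, which acts as a pair with MND1, had -1.52 ± 0.21, and RPA1, the large subunit of the protein that coats single-stranded DNA, had -1.03 ± 0.20, whereas RPA2 and RPA3 had -0.35 and -0.31. Of 20 checkpoint signalling genes 1 (5%) was more than 3-fold lower, CDC25C, a phosphatase that activates CDK1, at -1.90 ± 0.25. CLSPN, the adaptor that lets ATR activate CHEK1, was at least 2.97-fold lower. H2AX, the histone marked at breaks, had -1.40 ± 0.20. The median of this list was -0.16.

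In the other lists no measured gene had a ratio or bound beyond 3-fold in either direction. They were end joining (10 genes, POLQ not among them), mismatch repair (7), base excision repair (18) and nucleotide excision repair (17). Over all genes 2.75% were more than 3-fold lower and 3.37% higher, so lists this small can hold none without differing from genes at large. The medians of these lists, in the same order, were -0.37, 0.09, -0.18 and 0.11. In base excision repair FEN1, a flap nuclease that also serves replication, had -1.004 ± 0.21, the lowest value, although NEIL3, a glycosylase below background with periostin siRNA, is known only as at least 1.22-fold lower. NEIL1, another glycosylase, had the highest, 1.36 ± 0.21, from 117 to 298. In mismatch repair MLH3 had 1.04 ± 0.20. In nucleotide excision repair DDB2, a damage sensor and known p53 target, went from 6281 to 15943, a ratio of 1.34 ± 0.20, with 1.32 by its second probe. The medians and counts of these lists describe 1 pair of arrays, and differences between the lists were not tested.

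**Figure D4:**
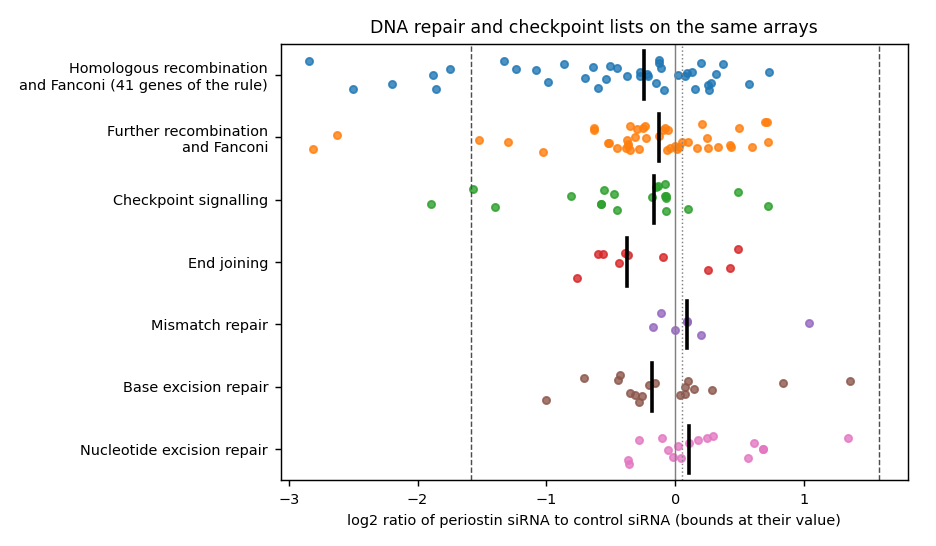
The log2 ratio (periostin siRNA over control siRNA) of the measured genes of 7 lists, 1 point per gene with bounds at their value, black bars the medians, dashed lines 3-fold and the dotted line the median of all genes, 0.06. Genes beyond the left dashed line occur in the first 3 lists, with 6, 2 and 1 genes, and no gene of the other 4 lists lies beyond either line. Over all genes 2.75% lay beyond the left line and 3.37% beyond the right.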

How the data were processed

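RNA from 1 sample with control siRNA and 1 with periostin siRNA was measured on 1 SurePrint G3 array each. For each array the authors deposited scanner output, whose intensity values the Feature Extraction program (11.5.1.1 per the file headers, 12.0.3.1 per the labels) had corrected for background, without scaling between arrays. Their table of normalized intensity values was deposited too, and for probes printed once it equals the scanner intensity times a constant per array, 3.65 and 3.54. How that table was normalized is not given in the sources used here.

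Control spots were left out of the 58717 analysed. The log2 intensity less the 75th percentile of its array (372 and 383) was used, spots of a probe were averaged, and the brightest probe stood for a gene. Of the spots 65.1% were named through RefSeq accessions. Where 1 array was below background the ratio is a bound against the lowest signal well above background on that array (7.55 and 7.77 after scaling). Where the probe's own signal on that array was higher, the plain ratio was used, which is no bound. No test was run, since each condition had 1 array, and the number of arrays limits the precision. All 41 genes were accounted for. Besides POSTN, genes of the other lists are named where more than 3-fold lower, and the rest were named after their values were seen. Of the genes outside the 41 that the naming rule holds, 1 is not reported here. Genes, lists, roles and thresholds were chosen with earlier results of these data known. The calculations used Python 3.11.15, numpy 2.4.6, pandas 2.3.3 and, for normexp on median spot signals, R 4.3.3 with limma 3.58.1. They were tested on simulated data that changed only genes above the 75th percentile of the control array. That test does not cover the dimmer range in which the genes more than 3-fold lower lay. Alternatives changed the background correction, scaling, probe rule, filters, values and threshold.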

Additional observations from a re-analysis of the deposited data

How the results depend on the processing

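No paired analysis was possible because there was 1 array per condition, which also means that no replicate could be left out in turn. The median of the 40 measured genes stayed below 0 in all 10 alternatives to the values, from -0.37 to -0.18. In 8 of them the same 6 genes were more than 3-fold lower, the exceptions being the normexp settings. Those 8 kept the background correction of the scanner program, and most changed a constant per array, a filter or the probe rule. They could hardly change these calls, so they are not independent support for them. The remaining causes were not tested.

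With normexp and an offset of 50, 0 of these genes, 190 genes in all lower and 143 higher, 0 further recombination genes and 0 checkpoint signalling genes passed 3-fold. The group medians were then -0.10 for the BRCA group, -0.22 for strand exchange, -0.84 for the ID complex, -0.37 for end sensing and -0.31 for the kinases, and POSTN was at -2.99. The brightest ATM probe changed under this setting. Without an offset, a setting chosen after seeing the data, 3 of these genes and 0 checkpoint signalling genes passed, and the ID complex and kinase medians were -1.40 and -0.34. Higher genes made up 42.9% of calls with the offset, against 55.1% in the main setting and 46.3% under median scaling. Median scaling shifted the median of all genes by -0.13. It gave -0.37 for the 40 genes, -0.55 for the BRCA group, -0.039 for the filament mediators, -0.73 for strand exchange, -0.40 for the Fanconi core with UBE2T, -1.85 for the ID complex, -0.66 for end sensing, -0.29 for dissolution, -0.11 for the kinases and -3.37 for POSTN, and 2 checkpoint signalling genes passed 3-fold, as with quantile normalization. The mean over probes gave -0.85 for strand exchange, -1.57 for the ID complex and -0.17 for the kinases. With genes well above background on both arrays alone, the BRCA group median turned to 0.019, since BRCA2 drops out. At 2-fold 1031 genes were lower and 1279 higher. Lower were 5 further recombination (11.1%), 3 checkpoint signalling (15%) and 1 base excision (5.56%) genes, beside 6.42% of all genes. At 4-fold 274 were lower and 278 higher, with 3 of the 41 genes and 0 checkpoint signalling genes lower.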
